A study of Mus musculus with 10 samples.

Results

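Unstimulated primary keratinocytes labelled Bcl10-/- (knockout) were compared with unstimulated keratinocytes labelled Bcl10+/- (heterozygous littermate controls). The comparison rests on 5 of the 10 libraries of the series, chosen by their labels alone: 2 labelled knockout and 3 labelled heterozygous. Both groups carried the allele Bcl10tm1Mak and came from the skin of pups at postnatal day 4 to 5. Cells were grown on collagen in serum-free medium with 0.05 mM calcium chloride, a low level that keeps keratinocytes close to a basal state. Each library was prepared from poly(A)-selected RNA, with 100 ng of total RNA as input. The other 5 libraries came from the same 5 numbered cultures after 200 ng/mL IL-17A for 5 h. The heterozygous cells kept a mutant copy of Bcl10, so no group was wild type. The sources do not say whether culture numbers stand for separate pups; the p-values therefore cover only the library-to-library spread, part of which may be technical.

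BCL10 is an adaptor protein that links CARD-family scaffold proteins to the protease MALT1. The assembled complex recruits TRAF6 and activates the IKK kinases, which release NF-kB from its inhibitor IkB-alpha; MALT1 also cleaves proteins that restrain NF-kB or destroy inflammatory mRNAs. A main scaffold in keratinocytes is CARD14, known for gain-of-function variants in psoriasis, and the genes that NF-kB drives there include neutrophil-attracting chemokines, IL-1 and IL-36 family cytokines and the pathway's own inhibitors.

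Bcl10 itself was examined first, as a check of the labels (ENSMUSG00000028191, GRCm38 chromosome 3, 145922804 to 145934356, plus strand). It was 0.969 and 16.998 FPKM (fragments per kilobase of transcript, scaled to library size) in knockout libraries 1 and 2, and 18.0, 67.0 and 59.5 FPKM in heterozygous libraries 1, 2 and 3. Heterozygous library 1 therefore stood beside knockout library 2 and not beside the other heterozygous libraries, which goes against its label. In the IL-17A libraries of the same cultures Bcl10 was 16.4 and 16.6 FPKM in knockouts 1 and 2, 16.3 FPKM in heterozygous 1, and 72.3 and 60.6 FPKM in heterozygous 2 and 3. The low value of knockout library 1 was therefore not repeated in its own IL-17A library, which stood at the level of heterozygous culture 1. The log2 difference, knockout minus heterozygous on log2(FPKM + 1), was -2.85 (SE 0.96, 95% interval -5.03 to -0.66, unadjusted p = 0.0165), with an adjusted p of 0.728 in limma. Without both libraries of heterozygous culture 1 it was -3.43 (adjusted p = 0.102). The deposited values do not show which exons gave the remaining Bcl10 reads, so they do not by themselves identify a genotype for any of the libraries. All libraries were kept under their labels, and counts, list medians and the differences of the main genes are given as labelled and without both libraries of heterozygous culture 1. No single gene passed the threshold as labelled, so an adjusted p under 0.05 below always comes from the fit without that culture.

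The 5 libraries held an estimated 17.7 to 28.9 M fragments, read from the steps of low FPKM values, at which 3 fragments in a 1 kb gene equal 0.104 to 0.170 FPKM (counting error only). Between 11889 and 12092 genes reached 1 FPKM. Keratinocyte markers were high throughout, with 8 of 9 at 1 FPKM or more in every library; the exception was Krt15, a basal and hair follicle keratin, at no more than 0.180 FPKM. In knockout library 1 the 10 most abundant genes took 12.6% of all FPKM, against 8.21% to 8.51% in the others, and Gm23935, annotated as a miRNA gene, led it at 11549 FPKM. Knockout library 2 alone carried fibroblast markers: the summed level of 9 was 44.2 FPKM there and 0.819 to 2.14 FPKM elsewhere, all 9 were highest in it, and Col1a1 was 10.8 FPKM. It also held skeletal muscle markers (summed 5.90 FPKM against 0.639 to 0.866 elsewhere), with Myog at 2.21 FPKM and at 0 in the other 4. Immune markers were near 0 apart from Cd68 (5.43 to 10.3 FPKM), and Ptprc and Cd3e were listed at 0 in every library.

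Melanocyte markers split the libraries in another way. Their summed level over 10 genes was 191 and 184 FPKM in knockout libraries 1 and 2 and 208 FPKM in heterozygous library 1, against 405 and 330.1 FPKM in heterozygous libraries 2 and 3. Of the 10 markers, 9 were higher in both of heterozygous 2 and 3 than in each of the other 3 libraries. Mlana, a melanosome protein, was 20.02, 20.98, 22.4, 75.2 and 44.1 FPKM in that order. In bulk RNA, fewer melanocytes and less RNA per melanocyte cannot be told apart. The library numbers in the labels split likewise: knockout cultures and heterozygous culture 1 carry numbers 1 to 14, and heterozygous cultures 2 and 3 carry numbers 33 to 38. What these numbers stand for is not given, so for heterozygous 2 and 3 genotype and library number cannot be told apart.

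Over all 12054 tested genes (those averaging 1 FPKM or more across the 10 libraries), the root mean square difference on log2(FPKM + 1) was smallest between knockout library 2 and heterozygous library 1, at 0.321. The 2 knockout libraries differed from each other by 0.370 and heterozygous libraries 2 and 3 by 0.377. Heterozygous library 1 was 0.391 from knockout library 1, and 0.484 and 0.396 from heterozygous 2 and 3. It was thus close to knockout library 2 only, and about as far from knockout library 1 as from heterozygous library 3. Heterozygous library 2 was the farthest from the knockouts, at 0.521 and 0.493. Heterozygous library 3 was 0.385 and 0.410 from them, nearly as close as the knockout libraries were to each other.

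**Figure D1:**
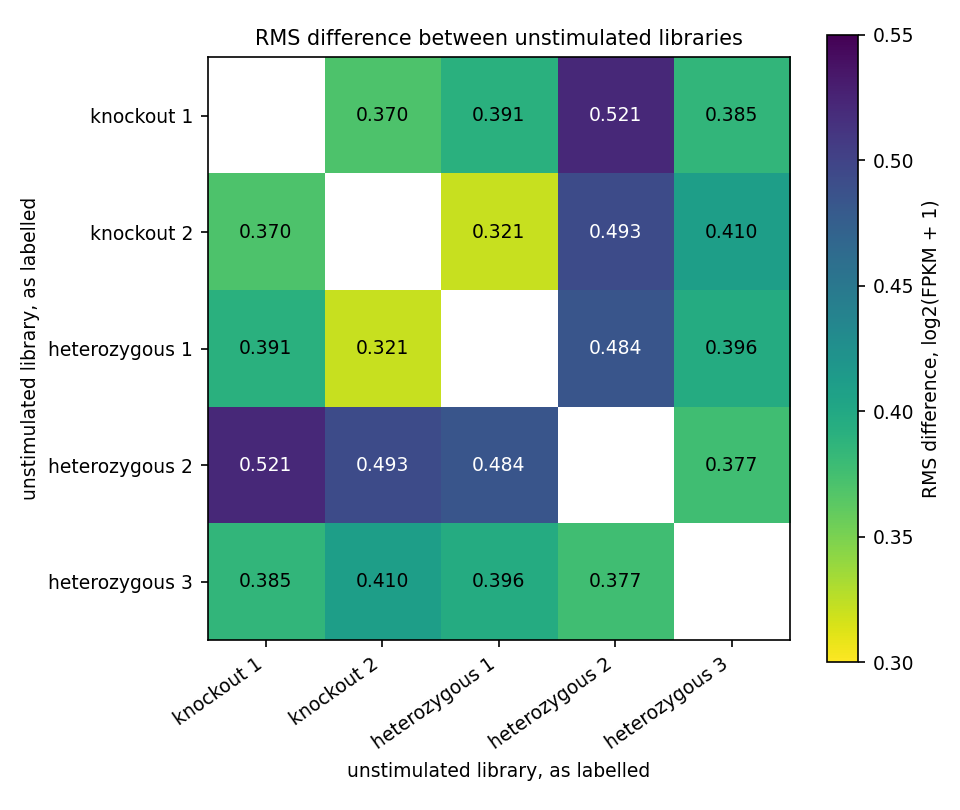
Root mean square difference of log2(FPKM + 1) over 12054 genes for each pair of the 5 unstimulated libraries, printed in each cell and shown by color; both axes list the libraries as labelled. The lightest cell is knockout 2 with heterozygous 1 (0.321), and heterozygous 2 stands farthest from both knockouts (0.521 and 0.493).

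With all 5 libraries as labelled, limma called 0 of 12054 genes higher and 0 lower at an adjusted p of 0.05 (0.0% each). An unadjusted p under 0.05 was reached by 562 genes (4.66%), 219 higher (1.82%) and 343 lower (2.85%), where about 603 would lie if no gene differed. Knockout and heterozygous values did not overlap, with the knockouts higher, in 1485 genes (12.3%), and with the knockouts lower in 1857 (15.4%). When heterozygous unstimulated library 1 alone was left out, again 0 and 0 genes passed the threshold, with 1481 genes (12.3%) at an unadjusted p under 0.05; the spread in that fit still included the IL-17A library of the same culture. When both libraries of heterozygous culture 1 were left out, 46 genes (0.382%) were called higher and 80 (0.664%) lower, and 3089 (25.6%) had an unadjusted p under 0.05.

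These 126 calls contrast knockout libraries 1 and 2 with heterozygous libraries 2 and 3. In each of the 4 fits that left out 1 further unstimulated library, most of the 126 no longer passed. Only 11 passed in each of those 4 fits, among them Csf2, Tnf, Il23a, Hcar2, Atp1b1, Slc6a14, Rab32 and Zfp979 (lower) and Fn1 and mt-Atp6 (higher). Heterozygous library 1, which took no part in choosing them, lay nearer the knockout mean than the mean of heterozygous 2 and 3 in 41 of the 46 higher genes and 74 of the 80 lower genes. Over all tested genes it did so in 71.0%. The melanocyte markers and the library numbers split the 4 libraries of these calls in the same way (1 of 10 tested markers was itself called); the part of the markers was not tested, and the library numbers cannot be told apart from genotype. On a scale where the knockout mean is 0 and the mean of heterozygous 2 and 3 is 1, its median position was 0.13 in the higher and 0.04 in the lower genes, and 0.07 over all genes.

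**Figure D2:**
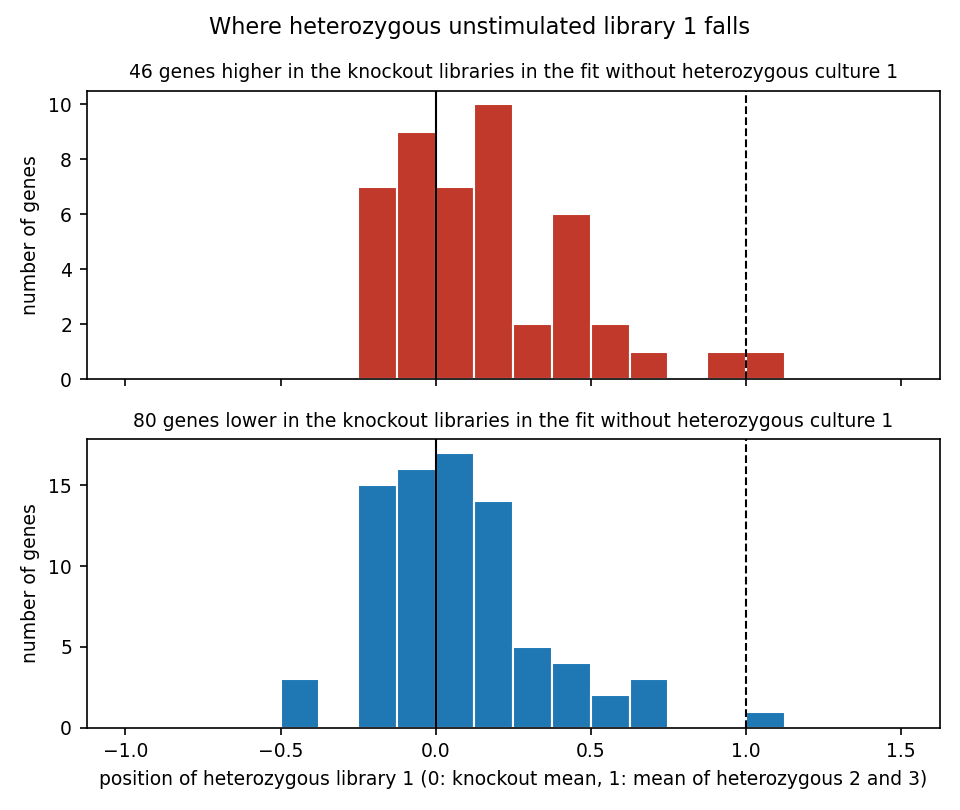
Number of genes (vertical axis) by the position of heterozygous unstimulated library 1 on a scale from the knockout mean (0, solid line) to the mean of heterozygous 2 and 3 (1, dashed line), for the 46 higher and 80 lower genes of the fit without that culture. Most genes sit near 0, with medians of 0.13 and 0.04.

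As labelled, 20 genes were taken by rule: the 10 smallest p-values in each direction among genes whose groups did not overlap. All had an adjusted p of 0.728 in limma, which does not set them apart, because Bcl10 and Csf2 had the same value. The 20 were chosen from this same contrast, and by that choice heterozygous library 1 lay nearer heterozygous 2 and 3 in all 20. Tagln, which encodes the actin-binding protein transgelin, had the smallest p: 11.3 and 12.2 FPKM in the knockouts against 4.78, 5.82 and 3.84 FPKM (log2 difference 1.15, SE 0.18, unadjusted p = 0.000123; also 1.15, adjusted p = 0.0598, without heterozygous culture 1). Here all 3 heterozygous libraries sat together, well below both knockouts. Srsf1, a splicing factor that also binds chemokine mRNAs in IL-17 signalling, was 75.9 and 81.0 FPKM against 37.5, 33.9 and 35.6 FPKM (log2 difference 1.12, SE 0.19, unadjusted p = 0.000252). Mmp10, stromelysin 2, a protease of wound-edge keratinocytes, was 5.88 and 6.001 against 3.02, 2.18 and 2.62 FPKM (0.95, SE 0.20; 1.03 without heterozygous culture 1). The other 7 of the higher 10 (Uck1, Cdc14b, Sncg, Zdhhc23, Itm2a, Zfp41 and Cox20b) had log2 differences of 0.42 to 0.78.

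On the lower side of those 20, Nqo1, a quinone reductase, was 5.37 and 6.15 FPKM in the knockouts and 8.75, 10.5 and 11.1 FPKM in the heterozygous libraries (log2 difference -0.72, SE 0.16). Hmox1, heme oxygenase 1, was 26.8 and 25.4 against 38.0, 43.3 and 34.0 FPKM (-0.53, SE 0.12; -0.54, adjusted p = 0.112, without heterozygous culture 1). N4bp2l2 was 3.91 and 3.36 against 5.64, 8.29 and 7.03 FPKM (-0.77, SE 0.16), and Mettl7b, a lipid-droplet-associated methyltransferase, was 0.664 and 0.939 against 1.96, 2.70 and 2.83 FPKM (-0.95, SE 0.22). Rps2, a ribosomal protein gene with many near-identical copies and therefore an uncertain value, was 93.4 and 88.7 against 207, 171 and 126 FPKM. The remaining 5, Hist1h2ah, Abtb2, Spsb3, Arpp19 and Gprc5a, had differences of -0.57 to -0.47. Of the 20, only Srsf1, N4bp2l2, Mettl7b and Nqo1 passed the threshold without heterozygous culture 1, with adjusted p-values of 0.0261, 0.0497, 0.0187 and 0.0441.

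Several chemokine and cytokine genes separated heterozygous libraries 2 and 3 from the other 3 libraries. Of 17 listed chemokines, 10 were tested; the median log2 difference was -0.64 as labelled and -1.10 without heterozygous culture 1, against -0.01 and -0.02 over all genes. Leaving out heterozygous library 3, heterozygous library 2 or knockout library 1 instead gave -0.37, -0.45 and -0.47. As labelled 9 of the 10 were lower and 0 passed, where 6361 of all 12054 tested genes were lower. Without the culture 0.664% of all tested genes fell. Of the 10 chemokines 5 fell there (Cxcl1, Cxcl2, Cxcl3, Cxcl16 and Ccl20) and 0 rose. Because these genes are known NF-kB targets, the 250 bases before the RefSeq start (build GRCm38.p6) are printed for Cxcl1 and Cxcl2, beside those of the NF-kB inhibitor gene Nfkbia and of Tnf described below; capitals mark matches to the kB consensus, the motif bound by NF-kB dimers, searched on both strands.
Cxcl1 (chr5:90890995-90891244, plus strand): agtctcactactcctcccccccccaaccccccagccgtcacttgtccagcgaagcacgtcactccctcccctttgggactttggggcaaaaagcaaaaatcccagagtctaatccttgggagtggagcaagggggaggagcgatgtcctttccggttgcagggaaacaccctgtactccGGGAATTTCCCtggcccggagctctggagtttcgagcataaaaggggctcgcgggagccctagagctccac
Cxcl2 (chr5:90903649-90903898, plus strand): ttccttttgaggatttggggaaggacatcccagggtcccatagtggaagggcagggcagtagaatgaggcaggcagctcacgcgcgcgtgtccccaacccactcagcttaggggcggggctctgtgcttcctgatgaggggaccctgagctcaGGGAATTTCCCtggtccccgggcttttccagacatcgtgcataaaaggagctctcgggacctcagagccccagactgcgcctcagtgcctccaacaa
Nfkbia (chr12:55492648-55492897, minus strand): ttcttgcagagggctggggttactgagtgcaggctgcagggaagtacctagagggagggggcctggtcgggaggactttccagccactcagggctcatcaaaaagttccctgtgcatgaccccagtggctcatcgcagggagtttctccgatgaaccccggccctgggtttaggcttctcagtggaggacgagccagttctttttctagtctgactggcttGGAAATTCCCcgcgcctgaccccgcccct
Tnf (chr17:35202008-35202257, minus strand): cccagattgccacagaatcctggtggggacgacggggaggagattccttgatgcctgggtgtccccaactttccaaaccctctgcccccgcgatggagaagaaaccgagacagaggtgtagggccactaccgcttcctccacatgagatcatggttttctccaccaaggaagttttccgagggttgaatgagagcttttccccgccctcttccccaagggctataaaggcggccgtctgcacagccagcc

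In Cxcl1 and Cxcl2 the capitals are 2 overlapping matches, because the run GGGAATTTCCC reads as the consensus from either strand; they begin 71 and 97 bases before the start. The Nfkbia window holds 1 match, 29 bases before the start, and the Tnf window holds 0. Among windows of this length, 7.25% of 32851 in the RefSeq table held a match. So did 5 of the 7 tested chemokine genes with a window, 6 of 12 NF-kB subunit and regulator genes, 4 of 11 cytokine genes and 2 of 12 contractile and matrix genes. In the 126 genes called without heterozygous culture 1, a match was present in 12 of the 58 lower genes with a window (20.7%) and in 1 of the 32 higher genes (3.12%). The 7.25% covers every window in that table, whether or not its gene was tested here, while the gene counts use 1 window per gene. The chemokine windows were searched because these genes are known NF-kB targets, so their share is not a finding of these data. The same limit holds for the lower genes, which include Cxcl1, Cxcl2 and Nfkbia. A second motif, the CArG consensus (CC and GG around a run of A or T), was also searched. It was in 2 of the 32 higher genes (6.25%), 0 of the 58 lower genes, 2 of 12 contractile and matrix genes and 1.47% of all windows. All are matches of letters in short windows, given as a description.

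The neutrophil attractants led the chemokines. Cxcl2 was 8.05 and 9.25 FPKM in the knockouts, 5.90 FPKM in heterozygous library 1, and 91.3 and 70.6 FPKM in heterozygous 2 and 3. As labelled its log2 difference was -1.89 (SE 1.17, adjusted p = 0.728), and without heterozygous culture 1 it was -3.08 (SE 0.30, adjusted p = 0.0115). Cxcl1, the most abundant of them, was 343 and 334 FPKM, then 296 FPKM, then 966 and 853 FPKM (-0.89 as labelled; -1.42, adjusted p = 0.0187, without the culture). In both genes heterozygous library 1 lay below the 2 knockout libraries. Cxcl3 was the exception to that overlap: 8.24 and 11.6 FPKM in the knockouts against 12.6, 38.6 and 43.7 FPKM, so that the groups did not overlap as labelled (-1.42 as labelled; -1.96, adjusted p = 0.0377, without).

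Ccl20, which attracts CCR6-bearing lymphocytes and dendritic cells, was 0.888 and 1.26 FPKM in the knockouts, 0.866 FPKM in heterozygous library 1 and 5.10 and 5.15 FPKM in heterozygous 2 and 3 (-1.0 as labelled; -1.57, adjusted p = 0.043, without the culture). Cxcl16, a membrane-bound chemokine, was 53.7, 51.4, 47.6, 111 and 99.3 FPKM in the same order (-0.61; -0.99, adjusted p = 0.0261). Among the 5 that passed, heterozygous library 1 lay inside or below the knockout range in 4. Ccl2, a monocyte attractant, differed between the knockouts: it was 12.8 FPKM in knockout library 2, the library with fibroblast markers, and 0.117 to 1.63 FPKM in the other 4. Cxcl5 also differed between the knockouts, at 2.81 and 11.8 FPKM, and did not pass (-0.66 as labelled; -1.21, adjusted p = 0.285, without the culture). The part of the fibroblast markers in these 2 values was not tested.

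Of 23 listed cytokines and growth factors 16 were tested, with a median of -0.24 as labelled and -0.43 without heterozygous culture 1. It was -0.14 without heterozygous library 3 and -0.39 without knockout library 2. As labelled 13 were lower and 0 passed. Without the culture 5 fell and 0 rose, where 0.664% of all tested genes fell. Csf2 (ENSMUSG00000018916, chromosome 11, 54247271 to 54249667), which encodes the granulocyte-macrophage growth factor GM-CSF, had the largest difference: 0.639 and 0.575 FPKM in the knockouts, 1.15 FPKM in heterozygous library 1, and 12.6 and 15.5 FPKM in heterozygous 2 and 3. Its groups did not overlap as labelled (log2 difference -2.28, SE 0.87, adjusted p = 0.728), but 1 heterozygous library sat close to the knockouts. Without heterozygous culture 1 the difference was -3.22 (SE 0.17, 95% interval -3.61 to -2.82, adjusted p = 0.00126), and it passed whichever further unstimulated library was left out.

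Tnf was 4.40 and 4.30 FPKM in the knockouts, 3.94 FPKM in heterozygous library 1 and 21.9 and 20.4 FPKM in heterozygous 2 and 3 (-1.33 as labelled; -2.05, SE 0.12, adjusted p = 0.00126, without the culture). Il23a, the IL-23 subunit that sustains IL-17-producing T cells, was 3.21, 3.54, 3.58, 14.7 and 18.5 FPKM (-1.36; -2.00, SE 0.14, adjusted p = 0.00268). The 3 lower libraries lay within 0.5 FPKM of each other for both genes, and both passed in all 4 fits that left out a further library. Il1f6, which encodes the epidermal alarmin IL-36 alpha, was 3.59, 1.98, 2.03, 14.4 and 10.98 FPKM (-1.15 as labelled; -1.87, adjusted p = 0.0254, without the culture). Il1a, stored preformed in keratinocytes, was far more abundant and less different: 147, 148, 148, 276 and 259.9 FPKM (-0.58; -0.86, adjusted p = 0.0474). Csf3 had the same order (1.62, 2.60, 2.22, 4.91 and 7.34 FPKM) without passing (-0.82; -1.19, adjusted p = 0.0928). Il1rn, the IL-1 receptor antagonist, ran the other way at 3.31, 3.59, 3.38, 1.40 and 1.83 FPKM (0.52; 0.77, adjusted p = 0.0946). Its low values were in the libraries in which Il1a was high.

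**Figure D3:**
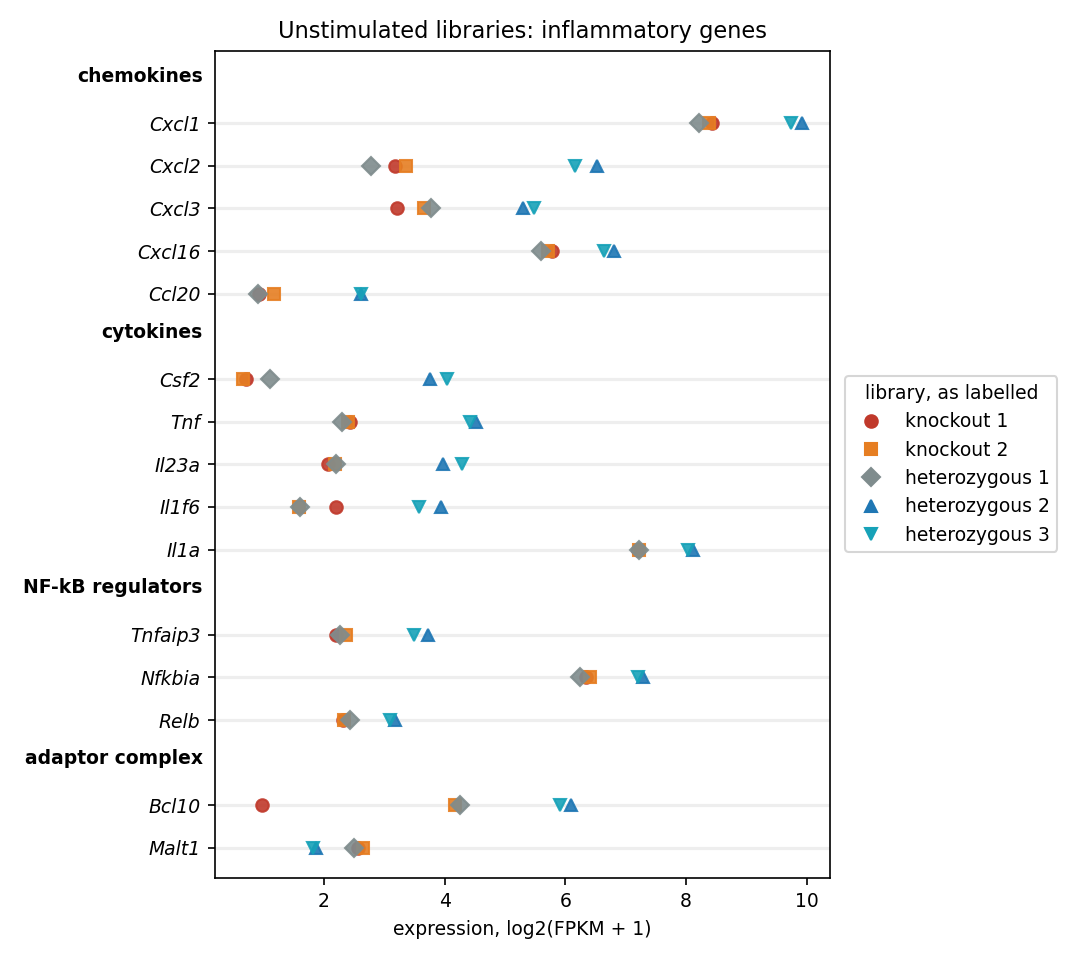
Expression as log2(FPKM + 1) on the horizontal axis for 15 genes of the inflammatory groups and the adaptor complex, with a marker for each of the 5 unstimulated libraries. The chemokines, cytokines and NF-kB regulators shown are the list members called lower without heterozygous culture 1. By that choice heterozygous 2 and 3 lie to the right of the 2 knockouts. Heterozygous 1, which took no part in it, lies with or near the knockouts. Malt1, called higher in the same fit, shows the opposite order.

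The subunits and feedback inhibitors of NF-kB gave smaller differences. Of 18 listed, 15 were tested; 14 were lower as labelled, with a median of -0.17 and 0 past the threshold. The median was -0.31 without knockout library 2 alone. Without heterozygous culture 1 it was -0.30, and 3 genes fell, against 0.664% of all tested genes. These were Tnfaip3, encoding the deubiquitinase A20, at 3.61, 4.16, 3.81, 12.2 and 10.3 FPKM (-0.88 as labelled; -1.32, adjusted p = 0.0261), Nfkbia, encoding IkB-alpha, at 80.0, 83.9, 75.1, 155 and 146 FPKM (-0.54; -0.87, adjusted p = 0.0261), and Relb, a subunit of the noncanonical pathway, at 3.96, 4.04, 4.37, 8.09 and 7.55 FPKM (-0.58; -0.82, adjusted p = 0.0268). All 3 are genes whose transcription NF-kB itself raises. Nfkb2 and Birc3 lay the same way without passing (-0.47 and -0.50 as labelled; -0.73 and -0.80, adjusted p = 0.0639 and 0.0635, without). For Rela and Nfkb1, the main subunits of the canonical dimer, the differences were small: -0.08 (95% interval -0.31 to 0.15) and -0.14 (-0.48 to 0.20) without the culture, and -0.09 and -0.06 as labelled.

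The adaptor complex and its kinase partners were near level. Of 15 listed genes 13 were tested, with a median of 0.04 as labelled and 0.03 without heterozygous culture 1. In the latter, where 0.382% of all tested genes rose, 1 rose. That was Malt1, BCL10's protease partner, at 4.89 and 5.26 FPKM in the knockouts, 4.67 FPKM in heterozygous library 1 and 2.65 and 2.51 FPKM in heterozygous 2 and 3 (0.54 as labelled, adjusted p = 0.728; 0.76, adjusted p = 0.024, without). Card14, the keratinocyte scaffold, was 2.12 and 2.46 FPKM against 2.85, 2.14 and 3.01 FPKM, a difference of -0.15 as labelled (interval -0.46 to 0.16) and -0.11 without the culture. Of the 12 listed substrates of the MALT1 protease 10 were tested, with a median of -0.02 as labelled and -0.08 without the culture. The 2 that fell in the latter, where 0.664% of all tested genes fell, were Tnfaip3 and Relb, already counted among the NF-kB genes. Zc3h12a, encoding the RNase regnase-1 that degrades inflammatory mRNAs, was 6.25, 8.12, 6.06, 9.95 and 13.0 FPKM (-0.34; -0.61, adjusted p = 0.127). These medians lie near 0, and leaving out knockout library 2 gave -0.01 for the adaptor complex while leaving out heterozygous library 3 gave 0.04 for the substrates.

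Among 14 tested genes of IL-17 receptor signalling the median was 0.03 as labelled and 0.01 without heterozygous culture 1. Only Srsf1 passed, in the latter, where 0.382% of all tested genes were called higher and 0.664% lower. The receptor chain Il17ra differed by -0.06 and the adaptor Traf3ip2 by -0.06 as labelled (-0.03 and -0.02 without the culture). The median was -0.04 without knockout library 2. Antimicrobial proteins had 6 tested members and 0 calls in either fit, with medians of -0.15 and -0.24; without heterozygous library 2 it was 0.01 and without heterozygous library 3 it was -0.29. S100a7a, mouse psoriasin, was 6.97 and 8.52 FPKM in the knockouts against 16.0, 22.1 and 14.1 FPKM (-1.06, SE 0.30, unadjusted p = 0.00707; -1.10 without heterozygous culture 1). Defb14, a beta-defensin, was 24.8 and 24.8 against 39.8, 60.1 and 36.5 FPKM (-0.81, SE 0.28, unadjusted p = 0.0184; -0.89 without). For these 2 genes heterozygous library 1 stood with the other heterozygous libraries, unlike for the chemokines. S100a8 and S100a9, the calprotectin subunits, overlapped between the groups (0.15 and 0.20 as labelled; 0.33 and 0.30 without).

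Genes of actin contraction and extracellular matrix lay on the higher side. Of 21 listed 16 were tested, and 15 were higher as labelled, with a median of 0.51 and 0 past the threshold. In 7 the groups did not overlap, with the knockouts higher, against 12.3% of all tested genes. Without heterozygous culture 1 the median was 0.63 and 2 rose, Acta2 and Fn1, against 0.382% of all tested genes. Fn1, fibronectin, was 16.3 and 18.5 FPKM in the knockouts, 11.2 FPKM in heterozygous library 1, and 5.70 and 6.38 FPKM in heterozygous 2 and 3 (1.12, SE 0.31, as labelled; 1.39, SE 0.11, adjusted p = 0.00482, without), and passed in all 4 fits that left out a further library. Acta2, smooth muscle actin, was 59.5, 31.0, 20.7, 5.23 and 7.06 FPKM (2.10 as labelled; 2.63, SE 0.42, adjusted p = 0.0473). In both, heterozygous library 1 was intermediate and below each knockout.

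Myl9, a myosin light chain, was 6.28, 3.35, 2.08, 0.296 and 1.07 FPKM (1.48 as labelled, SE 0.42; 1.78, adjusted p = 0.0689 without the culture). Tnc, tenascin C of the wound matrix, was 112, 119, 102, 39.4 and 53.8 FPKM, with heterozygous library 1 close to the knockouts (0.93, SE 0.44; 1.31 without the culture). In 14 of the 16 genes heterozygous library 1 was above both of heterozygous 2 and 3. Fstl1 and Sparc, made in quantity by fibroblasts, were high in knockout library 2 alone, at 7.85 against 0.601 to 1.06 FPKM and 36.4 against 13.6 to 16.2 FPKM. The list's median as labelled was 0.30 without knockout library 2, 0.32 without heterozygous library 2, and 0.58 and 0.47 without knockout library 1 and heterozygous library 3. Fn1, Acta2, Tagln and Myl9 were above all heterozygous libraries also in knockout library 1, where the 9 fibroblast markers summed to 1.58 FPKM; the part of these markers in the list's difference was not tested.

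**Figure D4:**
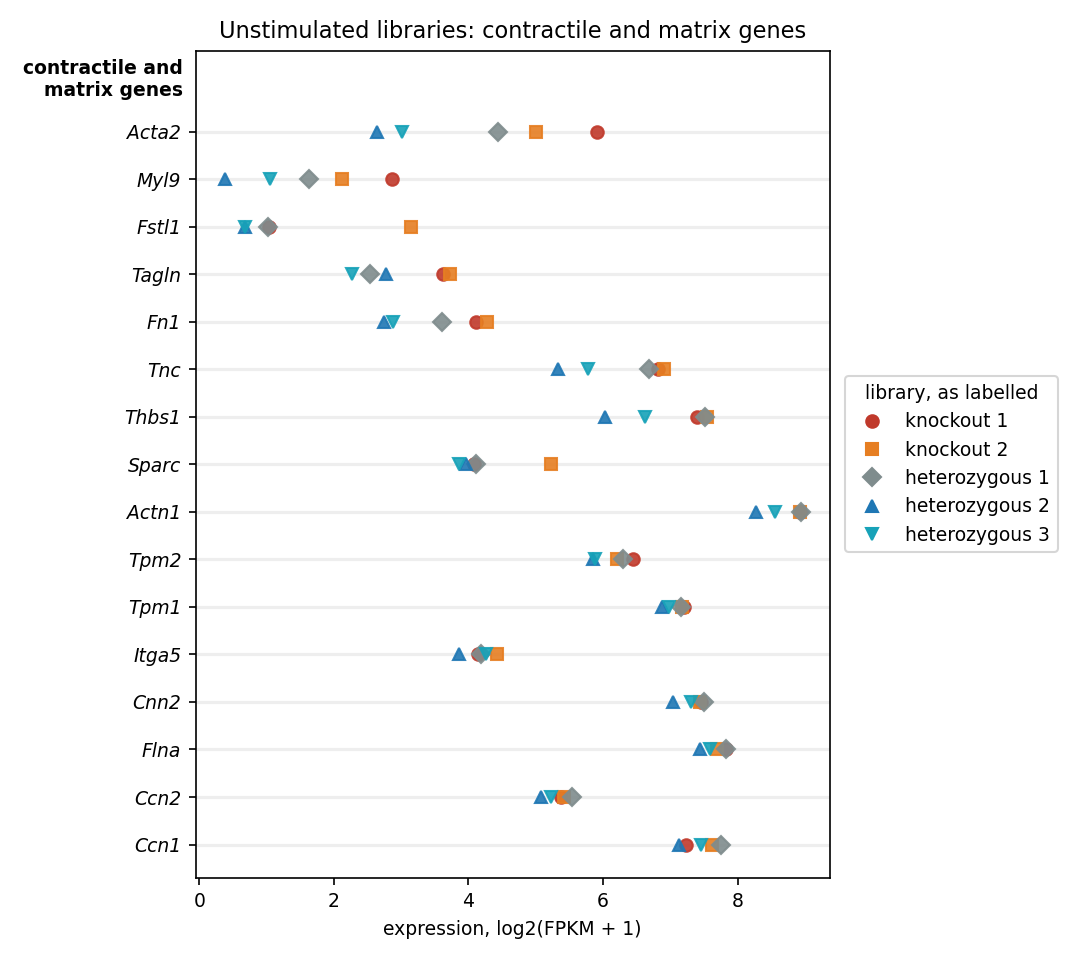
Expression as log2(FPKM + 1) on the horizontal axis for the 16 tested contractile and matrix genes, ordered by their log2 difference as labelled, with a marker for each of the 5 unstimulated libraries. Fstl1 and Sparc stand out in knockout 2 alone, while Acta2, Tagln and Fn1 are higher in both knockouts.

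Extracellular proteases and their inhibitors did not move as a block: of 14 tested, 8 were higher and 6 lower as labelled. The median was 0.14 (0.17 without heterozygous culture 1). Without that culture 0.664% of all tested genes fell, and 1 of these 14 did. That was Mmp9, gelatinase B, at 1.81 and 1.05 FPKM in the knockouts, 0.310 FPKM in heterozygous library 1 and 8.01 and 14.7 FPKM in heterozygous 2 and 3 (-1.25 as labelled; -2.31, adjusted p = 0.04, without). Mmp13, a collagenase, had the same order at 8.65, 4.15, 2.69, 13.6 and 13.0 FPKM without passing (-0.37; -1.02, adjusted p = 0.145). Mmp3 and Timp1, abundant in fibroblasts, were 80.0 and 18.5 FPKM in knockout library 2 and no more than 6.03 and 4.78 FPKM in the other 4; the part of the fibroblast markers was not tested.

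Within the lists of keratinocyte programs few genes passed. The fit without heterozygous culture 1 called 0.382% of all tested genes higher and 0.664% lower. The basal genes had a median of 0.11 as labelled and 0.22 without heterozygous culture 1 over 17 tested (0.05 without heterozygous library 2). In the latter 1 rose: Dst, dystonin, the plakin that ties keratin to the hemidesmosome, at 31.9, 33.9, 35.2, 13.6 and 17.7 FPKM (0.66 as labelled; 1.04, adjusted p = 0.0474). Its hemidesmosome partners Col17a1 and Itgb4 lay the same way (0.53 and 0.50 as labelled; 0.78 and 0.73 without) and did not pass, and Krt5 and Krt14 differed by 0.09 and 0.11 as labelled and 0.22 and 0.21 without. Of 20 tested terminal differentiation genes, whose medians were 0.02 and 0.18 (0.15 without knockout library 1, -0.04 and -0.09 without heterozygous libraries 2 and 3), 1 rose in the fit without the culture: Cdsn, corneodesmosin, at 18.0, 17.4, 20.4, 9.72 and 9.34 FPKM (0.49 as labelled; 0.83, adjusted p = 0.0261). Of 21 desmosome and junction genes 17 were higher as labelled. The medians were 0.16 as labelled, 0.14 without the culture and 0.10 without heterozygous library 2. Without the culture 1 of the list fell, the tight junction gene Cldn4, at 235, 227, 265, 543 and 467 FPKM. Its difference was -0.81 as labelled and -1.12 (adjusted p = 0.0187 in limma) without. Outside the list Cldn7, Ocln, Crb3 and Epcam, and outside the differentiation list Lce1h, were also called lower in that fit.

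Activated-epidermis genes held 15 tested members with medians of -0.13 and -0.11. Without heterozygous culture 1 0.382% of all tested genes rose, and 1 of these 15 did. Stfa1, a stefin whose family members are near-identical so that its value is uncertain, was 13.2, 14.6, 13.4, 3.89 and 3.94 FPKM and rose without heterozygous culture 1 (1.08 as labelled; 1.59, adjusted p = 0.0183). Krt16, a wound keratin, was lower in both knockouts at 451 and 522 against 548, 684 and 636 FPKM (-0.35, SE 0.14, adjusted p = 0.728; -0.44, adjusted p = 0.1, without). Sprr2d and Sprr2f had the lowest differences of the list, which rest on heterozygous library 3 and are uncertain because the family members are near-identical: Sprr2d was 80.6 FPKM there and 12.7 to 15.4 FPKM in the other 4. The cell cycle list gave 0 calls over 29 tested genes in either fit, with medians of -0.04 and 0.05 (from -0.10 to 0.05 with each library left out), and the 10 EGF receptor family and ligand genes gave 0 calls with medians of 0.20 and 0.29.

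Early response genes had medians of -0.11 and -0.05 over 21 tested members. The fit without heterozygous culture 1 called 0.382% of all tested genes higher and 0.664% lower. In it 1 of the 21 fell: Ier3, at 169, 180.5, 203, 253 and 286 FPKM (-0.49 as labelled and -0.62, adjusted p = 0.0497 in limma, without). Targets of the oxidant sensor NRF2 had medians of -0.15 and -0.20 over 15 tested and moved in both directions: Nqo1 fell and Osgin1 rose in that fit. Osgin1, an oxidative stress growth inhibitor, was 2.81, 2.81, 3.45, 0.680 and 0.604 FPKM (0.74 as labelled; 1.22, adjusted p = 0.00735), with heterozygous library 1 above the knockouts, whereas for Nqo1 it stood nearer the other heterozygous libraries. As labelled, 6 of the 15 were lower without overlap, against 15.4% of all tested genes, among them Gsta4, Txnrd1, Gstp1 and Gclm. Of the 15, 1 was higher without overlap, against 12.3% of all tested genes.

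The metabolic lists held no call. Of 19 tested genes of sterol and fatty acid synthesis 18 were higher as labelled, with 0 past the threshold in either fit. The median was 0.24 as labelled, 0.37 without heterozygous culture 1 and 0.15 without heterozygous library 2. In 6 genes the groups did not overlap as labelled, with the knockouts higher. Over all tested genes 5692 of 12054 were higher as labelled, and 12.3% were higher without overlap. Fasn, fatty acid synthase, was 84.7, 92.8, 99.3, 41.6 and 60.1 FPKM (0.49 as labelled; 0.81, adjusted p = 0.126, without the culture). Of 18 genes of glycolysis and the hypoxia response 16 were higher (medians 0.16 and 0.20; 0.10 without knockout library 1 and 0.25 without knockout library 2), led by Egln3, a prolyl hydroxylase induced by hypoxia, at 8.07, 7.98, 5.41, 1.64 and 2.77 FPKM (1.18, SE 0.43; 1.52, adjusted p = 0.0689 without the culture). Slc2a1, the glucose transporter GLUT1, was 182, 131, 120.5, 73.0 and 95.9 FPKM (0.70, SE 0.29; 0.88, adjusted p = 0.154, without). For both, the groups did not overlap as labelled, and heterozygous library 1 was the nearest to the knockouts. Interferon-stimulated and antigen presentation genes gave 0 calls over 7 and 8 tested members in either fit. Of 21 listed interferon-stimulated genes 14 fell under the filter of 1 FPKM. The medians were -0.07 and -0.03 as labelled, -0.21 and -0.19 without the culture, and 0.01 and 0.02 without heterozygous library 2. Outside the lists Ifi202b, Ifi209 and Tapbpl were called lower without the culture.

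Mitochondrially encoded genes have nuclear copies of near-identical sequence, so their values are uncertain. Of 15 tested 14 were higher as labelled (median 0.31, or 0.04 without heterozygous library 2), where 5692 of all 12054 tested genes were higher. Without heterozygous culture 1 0.382% of all tested genes rose, and 1 of these 15 did. That was mt-Atp6, an ATP synthase subunit, at 1029, 1099.7, 1050.1, 252 and 283 FPKM (1.33 as labelled and 1.99, adjusted p = 0.00126 in limma, without). It split the libraries into 3 and 2, whereas mt-Nd2 was listed at 0.0132 FPKM in heterozygous library 2 alone and at 217 to 300.2 FPKM in the others.

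**Figure D5:**
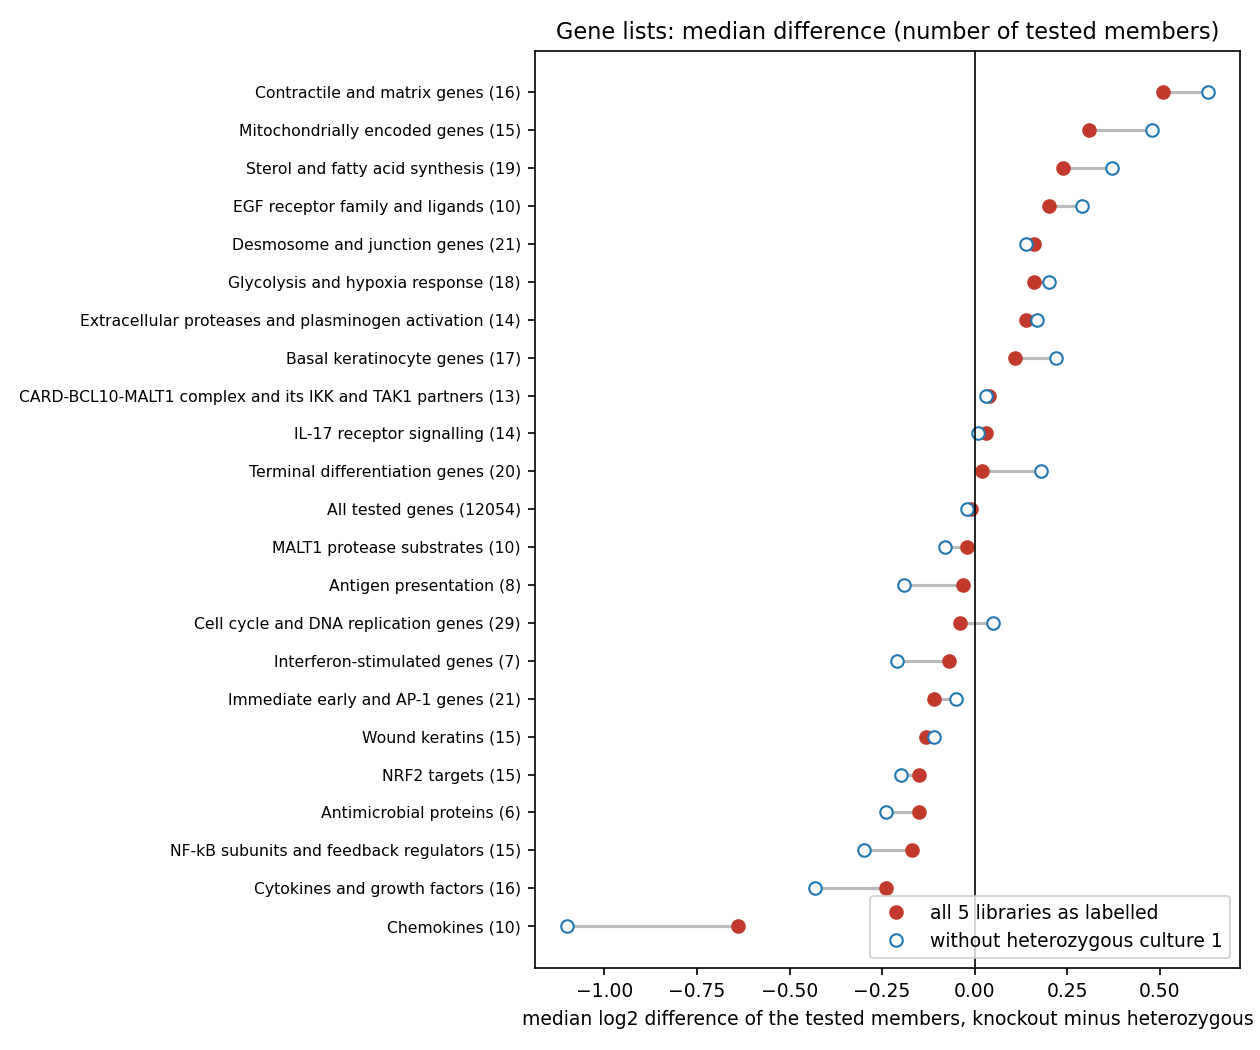
Median log2 difference, knockout minus heterozygous, of the tested members of each gene list (horizontal axis), with all 5 libraries as labelled (filled) and without heterozygous culture 1 (open); the number of tested members is in parentheses. Chemokines have the lowest medians (-0.64 and -1.10) and contractile and matrix genes the highest (0.51 and 0.63), with all tested genes at -0.01 and -0.02.

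Outside the lists, the fit without heterozygous culture 1 called several genes that separated the libraries completely. Zfp979, a zinc finger gene, was listed at 0 and 0.0268 FPKM in the knockouts, 0.0222 FPKM in heterozygous library 1, and 6.09 and 4.59 FPKM in heterozygous 2 and 3 (-1.76 as labelled; -2.64, adjusted p = 0.0019). The first 3 values are below the level of 3 fragments in a 1 kb gene. Among lower genes were also Hcar2, a hydroxycarboxylic acid receptor (2.39, 3.11, 2.19, 11.7 and 12.3 FPKM), Slc6a14, an amino acid transporter (3.91, 3.95, 3.30, 13.6 and 12.8 FPKM), and Atp1b1, a sodium pump subunit (7.05, 7.14, 6.57, 23.2 and 22.1 FPKM), with differences of -1.80, -1.52 and -1.55 (-1.12, -0.95 and -1.0 as labelled). The higher side included Ly6a, the surface antigen Sca-1 (75.5, 65.2, 69.9, 15.2 and 17.7 FPKM; 2.03, and 1.36 as labelled), Igfbp2 (22.3, 18.3, 19.7, 4.49 and 3.81 FPKM; 2.04, and 1.37 as labelled) and Duox1, a hydrogen peroxide-producing oxidase (9.74, 10.2, 10.9, 2.78 and 3.85 FPKM; 1.36, and 0.87 as labelled). For these 7 genes heterozygous library 1 lay nearer to both knockouts than to heterozygous 2 or 3.

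Genes around Bcl10 were listed because a targeted allele is inherited together with flanking DNA. Within 2 Mb, 18 other genes were tested, with log2 differences of -0.90 to 0.55 as labelled and 0 calls. Without heterozygous culture 1 the range was -1.31 to 0.82, and 1 of the 18 passed, where 0.664% of all tested genes were called lower. It was Mcoln3, a lysosomal cation channel gene, at 1.35, 1.30, 1.45, 5.34 and 4.27 FPKM. Its difference was -0.90 as labelled and -1.31 (adjusted p = 0.0432 in limma) without the culture.

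The same 5 cultures after IL-17A gave a second set of libraries, whose spread was estimated in the same fit. Of the 126 genes called without heterozygous culture 1, 123 had the same sign in the IL-17A libraries, against 84.6% of all tested genes. Of the 126, 117 passed there, in a comparison that called 3.83% of all genes higher and 2.87% lower. The cultures are the same, and the 126 calls already used the spread of these libraries, so this is not an independent replication. Csf2 was 1.28 and 2.12 FPKM in the knockouts, 5.31 FPKM in heterozygous library 1 and 23.1 and 24.0 FPKM in heterozygous 2 and 3 under IL-17A. Heterozygous library 1 was then higher relative to the knockouts than without stimulation. Tnf was 4.45, 4.46, 7.35, 29.7 and 23.7 FPKM and Cxcl2 was 9.53, 15.7, 20.2, 193 and 117 FPKM in the same order.

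Of the 20 genes taken by rule as labelled, 15 kept their sign under IL-17A, a share near the 77.7% of all tested genes. Of these 20, 0 passed in a comparison that called 0.0% higher and 0.0249% lower. Tagln kept its pattern, with 12.0 and 13.7 FPKM against 4.53, 6.01 and 4.01 FPKM (log2 difference 1.25). Srsf1 did not: under IL-17A it was 32.1 and 24.1 FPKM in the knockouts against 22.8, 31.4 and 36.2 FPKM (-0.09). The difference between its genotype differences in the 2 conditions was 1.20 (SE 0.27, unadjusted p = 0.00158) and did not pass the correction (adjusted p = 1.0); without heterozygous culture 1 it was 1.42 (adjusted p = 0.366). The only gene among the 126, and the only 1 of all tested (0.0083%), that passed this test of a difference was Gm20656 (adjusted p = 0.0178 without the culture), listed at 4.99 and 4.77 FPKM in the unstimulated knockouts, at 4.22 FPKM in the IL-17A library of heterozygous culture 1 and at 0 in the other 7.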

How the data were processed

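RNA from 10 keratinocyte libraries was measured, and 5 unstimulated libraries form the comparison. The authors deposited FPKM values for 37991 gene identifiers; per the submitters' processing notes HISAT2, SAMtools, StringTie and DESeq2 were used with build mm10, while versions, settings and annotation were not given. Symbols and positions came from GENCODE M21 (32938 identifiers matched), and 17074 identifiers were at 0 in every library. Depth was estimated from steps of low values: 49.1% to 55.1% lay within 0.05 of whole fragments, where 10% would by even spread, too few for a count test.

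Genes averaging 1 FPKM or more across the 10 libraries were tested on log2(FPKM + 1) with limma 3.58.1 in R 4.3.3, with its trend and a mean for each of 4 groups, two-sided, with Benjamini-Hochberg adjustment over 12054 genes and a threshold of 0.05. The IL-17A libraries help to estimate the spread, and a culture's 2 libraries count as independent. A log2 difference on this scale understates that of genes near 1 FPKM. The script was tested on simulated data.

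Named genes were Bcl10, the largest called changes in each direction, list members, markers and genes near Bcl10. Up to 15 changes per direction were taken as labelled and without heterozygous culture 1, and up to 8 without heterozygous library 1. With fewer than 5 called in a direction, the 10 smallest p-values among non-overlapping genes were taken. As labelled and without heterozygous library 1 no gene was called, so 20 genes were taken this way in each. Applying the rule to the fit without the culture, its alternatives, and the promoter search were added after seeing the data. Rab32, Gm20656 and list members beyond that rule were chosen after their values were seen. So were Cldn7, Ocln, Crb3, Epcam, Lce1h, Ifi202b, Ifi209 and Tapbpl. The comparison and the 22 lists were chosen with earlier results of these data known. Promoter sequences are from RefSeq, 1 window per gene, nearest the GENCODE start. Alternatives covered pseudocount, filter, scaling, trend, weights, replicate block and left-out libraries. Numbers across genotypes do not pair libraries: deviations of same-numbered unstimulated libraries correlated at -0.155 and 0.0476. A withheld item is not reported here and was left out of the lists.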

Additional observations from a re-analysis of the deposited data

How the results depend on the processing

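The absence of calls as labelled (0 higher, 0 lower) was unchanged with a pseudocount of 0.1, a minimum of 5 FPKM, scaling by median of ratios or to TPM, no variance trend, culture as a random effect and the replicate block. It became 2 higher without a filter, 1 higher with only the unstimulated libraries, and 10 and 2 without both libraries of knockout culture 1. Leaving out 1 replicate gave 0 to 2 higher and 0 to 2 lower. Library weights gave 1368 and 1561, but the weights were 11.8 and 33.4 for the libraries of heterozygous culture 3 against 0.197 to 1.14 for the others, so those counts rest mostly on that culture. Leaving out heterozygous culture 1 gave 46 and 80, and with only the unstimulated libraries and heterozygous 1 left out the counts were 14 and 22.

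Without heterozygous library 1 (0 and 0), the counts were 0 and 3 without a filter, 100 and 144 with library weights, 14 and 22 with only the unstimulated libraries, 1 and 0 with the replicate block, 11 and 3 without knockout culture 1, and 0 to 5 higher and 1 to 3 lower with 1 further replicate left out.

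Without heterozygous culture 1 (46 and 80), a pseudocount of 0.1, median-of-ratios scaling, no trend and culture as a random effect stayed within 1.5 times. Counts were 17 and 30 without a filter, 30 and 62 at a minimum of 5 FPKM, 29 and 54 with TPM scaling, 152 and 186 with library weights, 14 and 22 with only the unstimulated libraries, 26 and 16 without knockout culture 1, and 3 to 22 higher and 15 to 23 lower with 1 further replicate left out. With the replicate block they were 1556 and 1923; that fit compares only the cultures numbered 2, the single shared number, so it measures the spread between 2 libraries of a culture. The cause of the other shifts was not tested.

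Of the 126 calls, 121 were also called with median-of-ratios scaling, 77 with TPM scaling, 31 with only the unstimulated libraries and 28 without a filter. Among the genes run through these alternatives (20 as labelled, 43 without the culture) no difference reversed its sign. The numbers gave no pairing of libraries across genotypes. Values under about 0.104 to 0.170 FPKM rest on fewer than 3 fragments per kb.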
